A study of Macaca fascicularis with 2 samples.

Results

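Small leucine-rich proteoglycans are secreted matrix proteins built of leucine-rich repeats, and most of them bind collagen fibrils and set their thickness and spacing. All 9 genes named for the family (BGN, DCN, LUM, FMOD, PRELP, ASPN, OGN, EPYC and CHAD) were present by symbol among the 21371 genes listed for single cells of the nucleus pulposus (NP), the gel core of the intervertebral disc, and of articular cartilage (AC). They were described in 5653 cells, of which 310 were notochordal cells, with at least 5 reads of KRT19 and at least 5 reads of TBXT, and 5343 were other cells. KRT19 encodes an intermediate filament keratin and TBXT the notochord transcription factor brachyury. Notochordal cells are the large vacuolated cells that remain in the NP from the embryonic notochord, and the other cells carried chondrocyte genes.

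The animals were male wild type cynomolgus monkeys (Macaca fascicularis) aged 3 years, with no treatment named. The labels list 3 tissue samples by code only. By the study's own description, these were the NP of the L3/4 disc and the AC of the femoral condyle of 1 monkey and the AC of another. The tissues were digested, and the cells were marked with oligonucleotide tags through surface biotin and sorted as live cells. They were sequenced as 1 pooled library by TAS-seq, a full-transcriptome method on bead-captured cells. There were 4 tags, and no source used here pairs a tag with a tissue or an animal, so tags are given by number only. Since cells of 1 library are not replicates, no comparison has a p-value, and the intervals given cover counting error only. Reads are not unique molecules here, so PCR copies make these intervals too narrow.

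Tag A952 held 236 notochordal cells (21.0% of its cells), tag A951 held 67 (6.73%), tag A953 held 5 and tag A954 held 2. The other cells numbered 928, 889, 1372 and 2154 under tags A951 to A954. Depth was alike on both sides, with a median of 199072 reads and 3819 genes per other cell and 186371 reads and 4061 genes per notochordal cell, and a range of 31788 to 867991 reads over the notochordal cells. The 5 notochordal cells of tag A953 stood apart in depth, with a median of 494207 reads and 6612 genes. All 7 notochordal markers analysed (CDH2, NCAM1, SHH, C3orf49, APOE, NRN1 and SRGN) were at least 2-fold higher in notochordal cells, with a median log2 ratio of 6.68. Genes were tested if at least 10% of cells of either side had 5 or more reads. Of these markers only APOE reached that share in the other cells too (23.2%). The filter thus largely fixed the direction of the rest, and the count is a description. KRT8, KRT18 and CD24 were not analysed here. In the other cells COL2A1, the main cartilage collagen, had 20072 rpm, that is, reads pooled over cells and scaled to a total of 1000000 reads over all genes. Chondrocyte markers did not all go with the other cells. Of 7 analysed, 5 were at least 2-fold lower in notochordal cells, while ACAN (log2 ratio 1.86) and SOX9 (1.69) were higher there. Among the lower ones MATN3 passed the 10% filter only through the other cells. Of all genes tested, 11.3% were at least 2-fold lower in notochordal cells and 23.1% at least 2-fold higher.

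By sequence and gene structure the family falls into classes. BGN (biglycan), DCN (decorin) and ASPN (asporin) are class I; biglycan and decorin carry chondroitin or dermatan sulfate chains, and asporin carries a run of aspartates in their place. LUM (lumican), FMOD (fibromodulin) and PRELP (prolargin) are class II, of which lumican and fibromodulin can carry keratan sulfate. EPYC (epiphycan) and OGN (osteoglycin or mimecan) are class III, and CHAD (chondroadherin) is a class IV member that binds collagen and cell surface integrins. In cartilage these proteins bridge collagen fibrils and the aggrecan-rich gel between them, and several bind TGF-beta.

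The family split in the comparison of notochordal with other cells. Pooled over tags, BGN, DCN, LUM, ASPN, OGN and CHAD were lower in notochordal cells by 10.4-fold to 77.2-fold, and FMOD and PRELP were as high there as in the other cells. The size of these folds rests on how notochordal cells were picked: with KRT19 and TBXT reads summing to at least 5, the log2 ratios of the 6 lower members were from -2.55 (LUM) to -1.48 (OGN), and with at least 1 read of both genes LUM (-0.75) and ASPN (-0.92) were no longer 2-fold lower. The folds also moved with the tags used. With tags A951 and A952 alone, the log2 ratios of LUM (-4.46), ASPN (-4.99) and DCN (-4.72) were smaller in size than pooled. Those of BGN (-3.65), OGN (-4.33) and CHAD (-4.95) were larger. At least 2-fold lower were 6 of 9 members, against 11.3% of the 6708 genes detected with 5 or more reads in at least 10% of cells of either side, and at least 2-fold higher were 0 of 9, against 23.1%. EPYC did not reach that share of cells on either side, and LUM, ASPN and OGN reached it only in the other cells, where they are high, so the filter fixed the direction these 3 could take and the count is a description. The median log2 ratio of notochordal over other cells was -4.10 over the 9 members and 0.28 over those 6708 genes. With the cells of tags A951 and A952 alone the count was again 6 and the median -4.33, and without tag A952 they were 6 and -2.82. Summed, the members took 1.28% of all reads in notochordal cells and 3.43% in other cells. FMOD alone was 74.4% of the members' reads in notochordal cells and 21.3% in other cells, where BGN was 34.3% and CHAD 23.4%, as shares of reads not corrected for gene length.

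**Figure D1:**
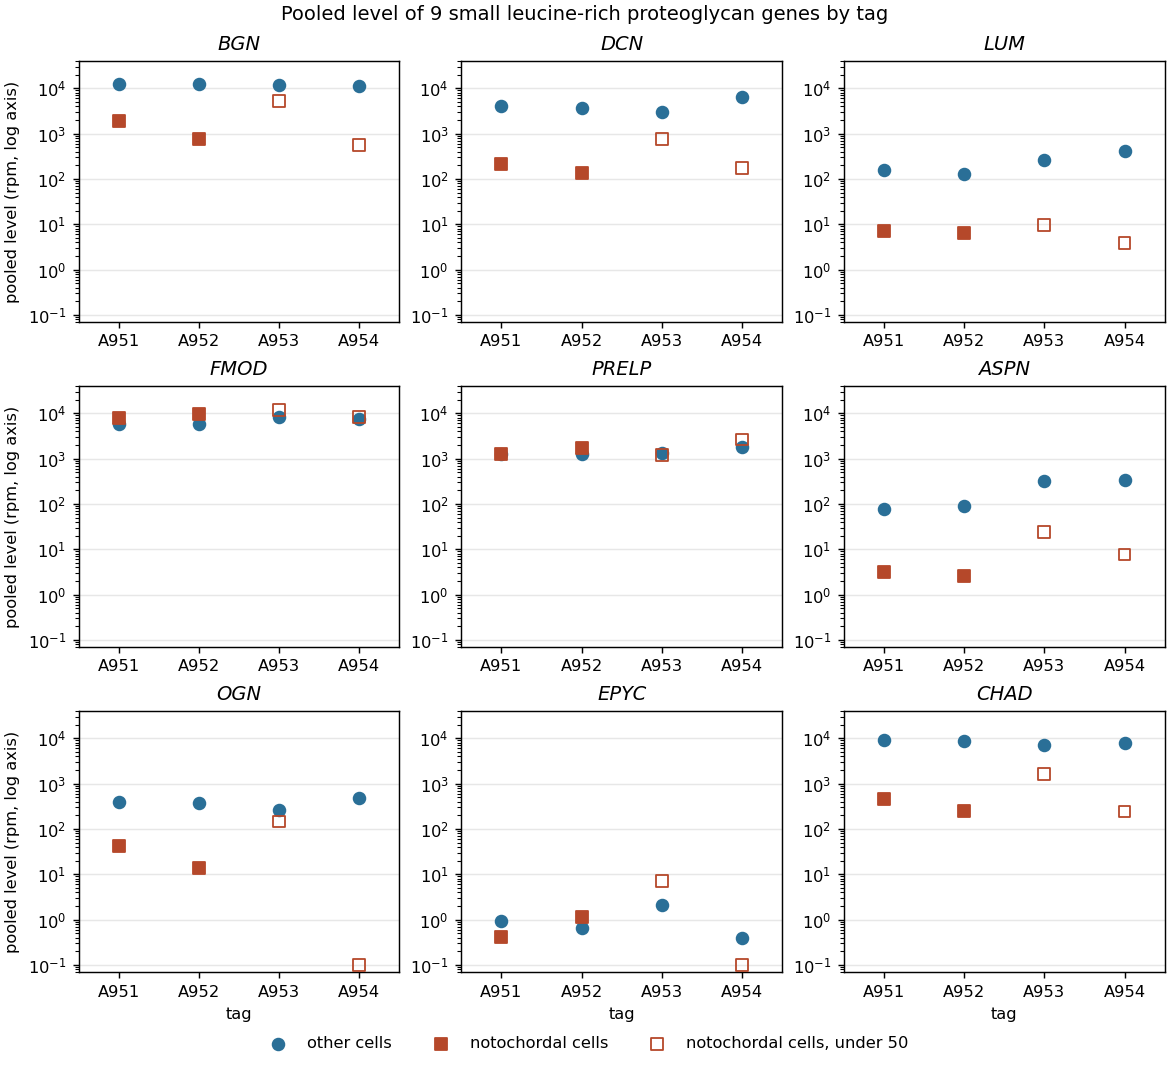
Pooled level in rpm on a log axis of each member under each tag, in other cells (circles) and notochordal cells (squares, open where there were under 50 cells); a level of 0 reads, as for OGN and EPYC in the 2 notochordal cells of tag A954, is drawn at 0.1. The squares lie far below the circles for BGN, DCN, LUM, ASPN, OGN and CHAD under tags A951 and A952, and beside or above them for FMOD and PRELP.

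Of class I, biglycan was the nearest to evenly spread over the other cells. Its pooled level there was 12426, 12185, 11989 and 11252 rpm under tags A951 to A954, a range of 1.10-fold. In notochordal cells it was 1900 rpm under tag A951, 761 under tag A952, 5320 in the 5 cells of tag A953 and 551 in the 2 of tag A954. Every notochordal level was below every other-cell level, and the pooled log2 ratio was -3.38 (95% interval -3.39 to -3.37). The ratio was -2.71 within tag A951, -4.00 within tag A952 and -2.28 when tag A952 was left out. Single notochordal cells were spread widely: the 10th percentile was 171 rpm, the median 284 and the 90th percentile 2065, against 6050, 11757 and 18159 rpm in other cells. The highest 10% of the notochordal cells held 54.2% of their BGN reads, and 301 of 310 lay below the 10th percentile of the other cells.

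Decorin varied more between tags in the other cells, at 4021, 3755, 2955 and 6290 rpm. Its notochordal levels were 212, 133, 756 and 175 rpm, all below the lowest other-cell level. The log2 ratio was -4.80 pooled, -4.25 within tag A951 and -4.82 within tag A952. The median notochordal cell had 99.7 rpm and the median other cell 3889 rpm, and 297 of 310 notochordal cells lay below the 10th percentile of the other cells (627 rpm). At full depth DCN passed 5 reads in 95.5% of notochordal cells; with each cell thinned to 50000 reads, it did so in 56.9% of them and 98.0% of other cells.

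Asporin, a TGF-beta-binding member, had the lowest pooled ratio of the family under the rule of 5 reads of each gene; with the reads of both summed it was -2.50 beside -2.55 for LUM, with 1 read of both OGN was lowest (-1.38), and as a mean of log2(rpm + 1) CHAD was (-5.02). Its other-cell levels were 77.8 and 91.9 rpm under tags A951 and A952, and 328 and 345 rpm under tags A953 and A954. In notochordal cells the levels were 3.11, 2.55, 23.8 and 7.61 rpm. The pooled log2 ratio was -6.27 (-6.47 to -6.08), and within tags A951 and A952 it was -4.64 and -5.17, so that part of the pooled ratio came with the higher other-cell levels of the tags that held 7 notochordal cells. At least 5 reads were found in 0.323% of notochordal cells and 27.2% of other cells, and in 0.334% and 23.5% after thinning. ASPN was also uneven within the other cells, where the median was 4.03 rpm, the 90th percentile 788 rpm, and the highest 10% of cells held 76.2% of the reads.

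**Figure D2:**
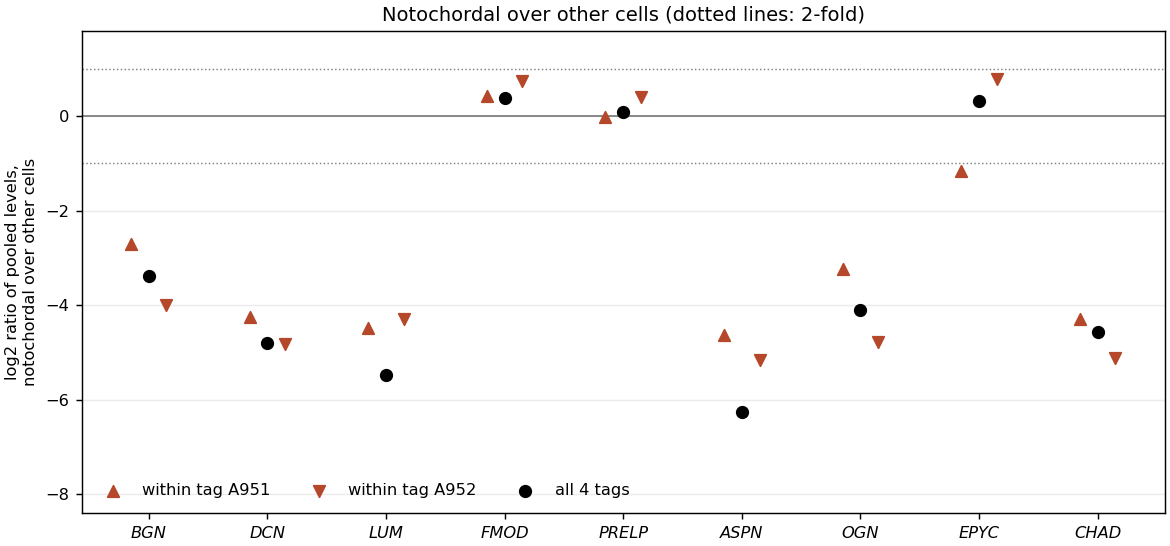
The log2 ratio of pooled rpm, notochordal over other cells, for each member over all 4 tags (circles) and within tags A951 and A952 (triangles); dotted lines mark 2-fold. The pooled values are -3.38 for BGN, -4.80 for DCN, -5.48 for LUM, 0.38 for FMOD, 0.09 for PRELP, -6.27 for ASPN, -4.10 for OGN and -4.57 for CHAD, and EPYC had too few reads for its value to be read.

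Class II held both patterns. Fibromodulin, which binds type I and II collagen fibrils, had 5899, 5845, 8534 and 7555 rpm in the other cells of tags A951 to A954. Its notochordal levels were 7905, 9798, 11854 and 8249 rpm, higher than in the other cells of the same tag in each of the 4 tags. The log2 ratio was 0.42 within tag A951, 0.75 within tag A952 and 0.38 pooled, which stood at the 54.2nd percentile of the genes tested, so the FMOD ratio was that of a middling gene and not an outlying one. Both sides overlapped widely, with medians of 8915 and 6171 rpm per cell, and 245 of 310 notochordal cells were at or above the other-cell median.

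Prolargin, which binds heparan sulfate through its basic end, had 1274, 1284, 1303 and 1781 rpm in the other cells. In the notochordal cells it had 1257, 1694, 1194 and 2666 rpm. The log2 ratio was -0.02 within tag A951, where the counting intervals of both levels overlap, 0.40 within tag A952 and 0.09 pooled. At or above the median of the other cells (1140 rpm) were 179 of 310 notochordal cells. PRELP was found with at least 5 reads in 97.4% of notochordal and 95.2% of other cells.

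Lumican, the third class II member, followed asporin. Other cells had 161, 125, 268 and 418 rpm under tags A951 to A954, and notochordal cells 7.21, 6.41, 9.70 and 3.80 rpm. Every notochordal level was far below every other-cell level, with a pooled log2 ratio of -5.48 (-5.62 to -5.35) and -4.48 and -4.29 within tags A951 and A952. The pooled LUM ratio was thus larger in size than that within either of these tags. LUM was detected in 5.16% of notochordal and 38.9% of other cells, and in 0.669% and 31.3% after thinning. Its reads came from few cells, with a median of 10.2 rpm, a 75th percentile of 201 rpm and 73.0% of the reads in the highest 10% of other cells.

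Class III held osteoglycin, which binds collagen fibrils, and epiphycan, known from growth cartilage. OGN had 392, 372, 260 and 490 rpm in other cells, and 41.8, 13.5, 146 and 0 rpm in notochordal cells. The notochordal levels were below all the other-cell levels, and the log2 ratio was -4.10 pooled, -3.23 within tag A951 and -4.78 within tag A952. The highest 10% of notochordal cells held 84.9% of their OGN reads, and the highest cell had 1740 rpm while the median cell had 2.37 rpm. EPYC was near absent at this depth: 0.968% of notochordal and 0.281% of other cells had at least 5 reads, and its pooled levels were 1.20 and 0.962 rpm, with a log2 ratio of 0.31 (-0.03 to 0.64) whose interval spans 0. These were 3 of 310 notochordal and 15 of 5343 other cells.

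Chondroadherin had 9178, 8743, 7158 and 7875 rpm in the other cells. Its notochordal levels were 465, 250, 1630 and 243 rpm, all below the lowest other-cell level. The log2 ratio was -4.57 pooled, -4.30 within tag A951 and -5.13 within tag A952. The median notochordal cell had 131 rpm, with 85.8 and 263 rpm as the 10th and 90th percentiles, and the median other cell 6635 rpm. No notochordal cell reached the other-cell median for CHAD, DCN or BGN.

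**Figure D3:**
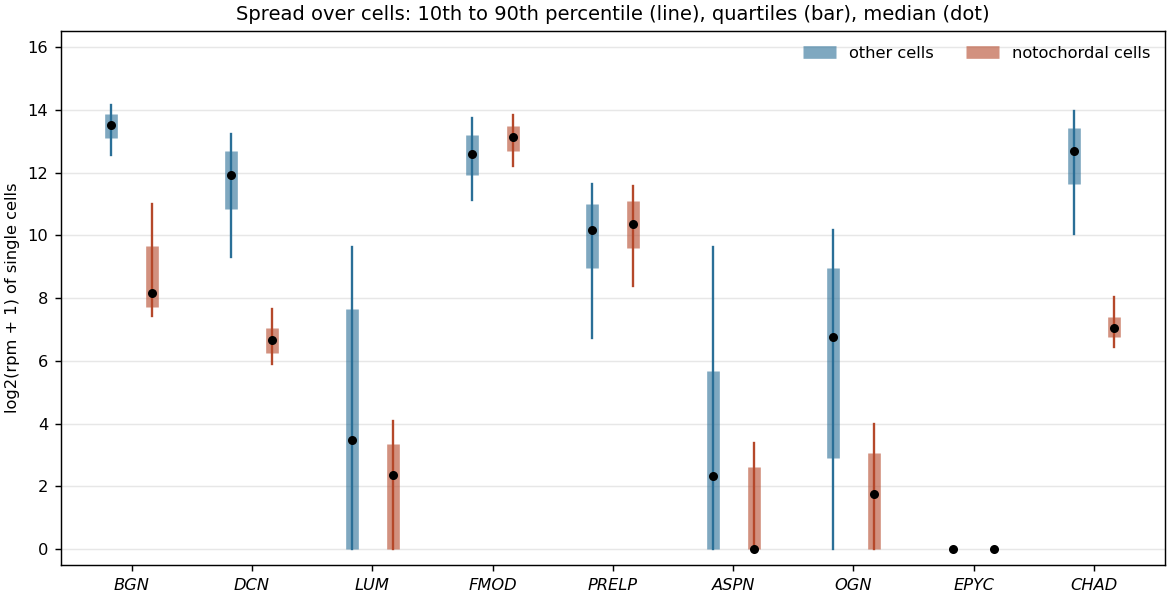
Spread over single cells of log2(rpm + 1) for each member, in other cells (left, blue) and notochordal cells (right, red): the line runs from the 10th to the 90th percentile, the bar spans the quartiles and the dot is the median. The notochordal bars of BGN, DCN and CHAD lie below the other-cell lines, those of FMOD and PRELP overlap them, and LUM, ASPN and OGN spread from 0 upward in the other cells.

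Low reads of a gene can come from RNA released by other cells. In the 5258 other cells with under 5 reads of KRT19 and under 5 of TBXT, the 7 notochordal markers that the rule did not use stood between 2.04% (C3orf49) and 45.7% (NCAM1) of their level in the whole library, with NRN1 at 5.20%, SHH at 6.57%, CDH2 at 12.7%, APOE at 12.8% and SRGN at 13.2%. These marker values pool reads over cells. Pooled likewise, notochordal cells stood at 10.0% of the library level for BGN, 3.77% for DCN, 2.35% for LUM and 4.41% for CHAD. OGN had 6.12%, ASPN 1.36%, FMOD 128% and PRELP 106%. The median notochordal cell, a different measure, stood at 2.52% of the library level for BGN, 2.22% for DCN, 1.46% for LUM, 1.71% for CHAD, 0.623% for OGN and 0 for ASPN, and at 120% for FMOD and 87.1% for PRELP. Among the 125 genes with at least 1000 rpm in other cells, CHAD, DCN and BGN ranked 9th, 18th and 21st from the lowest by this measure, beside MGP at 0.781%, COL9A1 at 1.31%, PRG4 at 1.43%, MMP3 at 1.99% and COL2A1 at 2.17%. The part of released RNA in the BGN, DCN and CHAD reads of notochordal cells was not tested.

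Of the 9 members, the median notochordal cell had 5 with at least 5 reads and the median other cell 6. After thinning, which left out 11 notochordal and 196 other cells, the medians were 4 and 6.

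Among the other cells, and leaving aside EPYC, whose 5.36-fold range ran from 0.395 to 2.12 rpm, the tags differed most for ASPN (4.44-fold from the highest to the lowest tag) and LUM (3.33-fold), then DCN (2.13-fold), OGN (1.88-fold), FMOD (1.46-fold), PRELP (1.40-fold), CHAD (1.28-fold) and BGN (1.10-fold). LUM, FMOD, PRELP and ASPN were lower under both A951 and A952, the tags with most notochordal cells, than under A953 and A954. BGN and CHAD were higher under A951 and A952. Each tag gave 1 value, so these differences have no replicate error, and tissue, animal and tag cannot be told apart.

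Within the other cells the members did not vary as a block. FMOD and PRELP, both of class II, had the highest Spearman correlation of the 36 pairs, and CHAD ran against FMOD and ASPN. By Pearson on log2(rpm + 1) BGN with CHAD was the highest, at 0.44, and FMOD with PRELP had 0.39. Spearman correlations over rpm of the 5343 cells, which share 1 library and its depth differences, are descriptions with no p-value. FMOD and PRELP had 0.47, between 0.36 and 0.53 within the 4 tags, and 0.41 within notochordal cells. FMOD and CHAD had -0.35, between -0.35 and -0.31 within tags. The median over all 36 pairs was 0.0674. For the 6 members detected in at least 50% of other cells the median of their 15 pairs was 0.112, beside 0.0559 for all 591328 pairs of the 1088 genes detected as often.

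**Figure D4:**
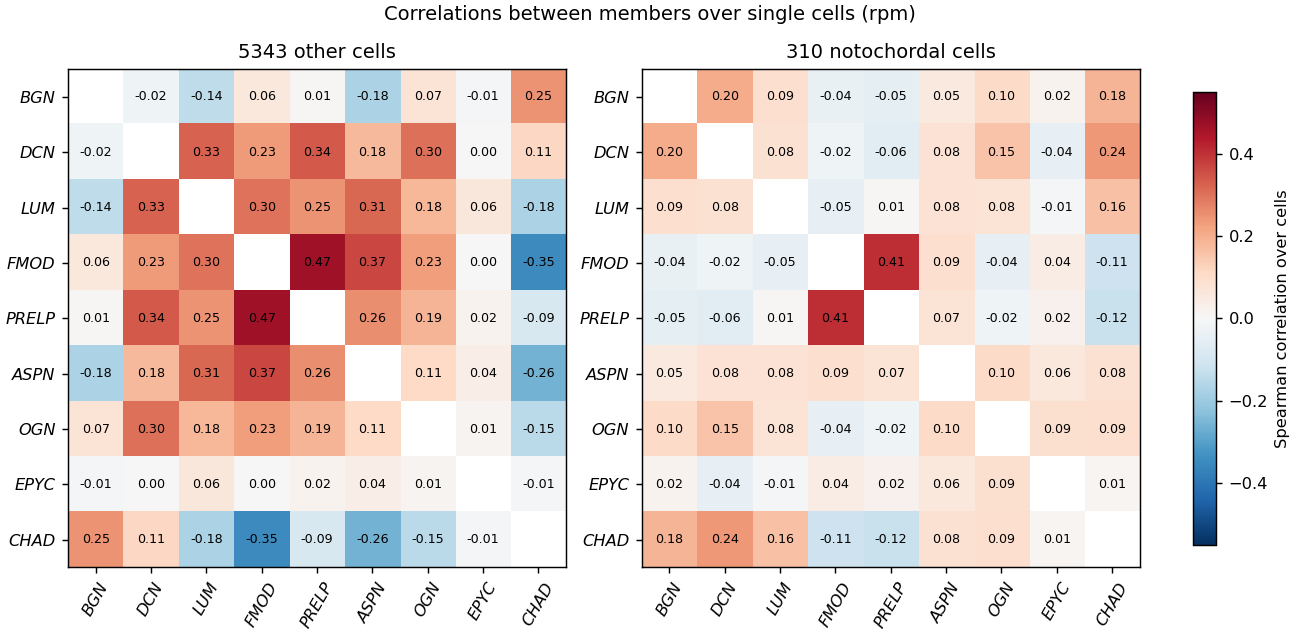
Spearman correlation of rpm between each pair of members over other cells (left) and notochordal cells (right), blue for negative and red for positive. FMOD with PRELP is the highest in both panels, at 0.47 and 0.41, and CHAD with FMOD is the lowest in other cells, at -0.35.

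FMOD and ASPN had 0.37 (0.19 to 0.44 over tags), DCN and PRELP 0.34 (0.24 to 0.34), DCN and LUM 0.33 (0.19 to 0.31), LUM and ASPN 0.31 (0.14 to 0.44), LUM and FMOD 0.30 (0.18 to 0.42), and DCN and OGN 0.30 (0.16 to 0.36). The pooled DCN and LUM value thus lay above that of every single tag. DCN and BGN, both of class I, had -0.02, with both signs among the tags. BGN was instead positive with CHAD (0.25, but 0.04 within tag A951) and negative with ASPN (-0.18, but -0.02 within tag A952). CHAD was negative with ASPN (-0.26, from -0.37 to -0.12 over tags), LUM (-0.18, from -0.28 to -0.02) and OGN (-0.15, from -0.21 to -0.12) too. EPYC had at most 0.0607 in size with every member over all other cells, and 0.15 with LUM within tag A952. LUM and ASPN themselves correlated with reads per cell (0.23 each), and adjusting for reads, genes detected and tag took their pair from 0.31 to 0.25. The range over the 36 pairs was then -0.34 to 0.47.

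ASPN was detected more often in cells with LUM than in cells without it, over all other cells and within each tag. After thinning, ASPN was detected in 45.3% (95% exact interval 42.9 to 47.8) of the 1611 other cells with LUM and in 13.5% (12.4 to 14.7) of the 3536 without it. The shares with and without LUM were 20.5% and 7.11% within tag A951, 21.7% and 6.40% within A952, 53.4% and 21.5% within A953 and 52.3% and 14.9% within A954. OGN was detected in 63.1% of cells with LUM and 46.9% of those without, and in 62.9% and 48.6% of cells with and without ASPN.

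The same negative relations can be read as levels, with the other cells of each tag ordered by CHAD; this restates the correlations and adds no evidence to them. From the 25% of cells with the lowest CHAD level to the 25% with the highest, FMOD went from 7891 to 4051 rpm under tag A951, from 7426 to 4112 under A952, from 9938 to 5168 under A953 and from 9522 to 5258 under A954. ASPN went from 142 to 17.3, from 144 to 17.9, from 438 to 179 and from 658 to 47.3 rpm. LUM went from 246 to 81.9 rpm under A951 and from 562 to 57.9 rpm under A953. BGN was higher in the cells with high CHAD under each tag, by 0.02 to 0.64 on the log2 scale. Between the same cells PRG4, the lubricin gene of surface cartilage, went from 24851 to 2350 rpm under A951, and COL2A1 from 16005 to 29016 rpm.

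The genes outside the 9 members that were nearest to each in pattern, taken as the 3 highest Spearman correlations among 5496 genes detected in at least 10% of other cells, differed between members. Pairs of 2 members were not ranked here, and several of them were higher than the values that follow. CHAD was nearest to SPARC (0.53), a collagen-binding glycoprotein, COL2A1 (0.51) and SNORC (0.51), a chondrocyte proteoglycan, with a lowest value over tags of 0.32, for COL2A1 under A951. BGN was nearest to COL11A2 (0.39), a chain of the fibril-nucleating collagen XI, and to COL16A1 (0.37) and COL14A1 (0.36), collagens that attach to fibrils. FMOD was nearest to CRTAC1 (0.46), a secreted cartilage protein, PRG4 (0.44) and COL3A1 (0.37). ASPN was nearest to CRTAC1 (0.43), CILP (0.31), a protein of the cartilage intermediate layer, and SULF2 (0.30), a sulfatase of heparan sulfate. LUM was nearest to CRTAC1 (0.37), SEMA3D (0.25) and PRSS23 (0.25). PRELP was nearest to IGFBP7 (0.31), CILP (0.26) and CRTAC1 (0.25), and OGN to PRG4 (0.28), COL12A1 (0.21) and ECM2 (0.21). DCN was nearest to PCBP3 (0.38), IGFBP7 (0.35) and ECM2 (0.31), but PCBP3 had 0.41 and 0.26 within tags A951 and A952 and 0.03 and -0.03 within A953 and A954. For EPYC no gene passed 0.10.

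**Figure D5:**
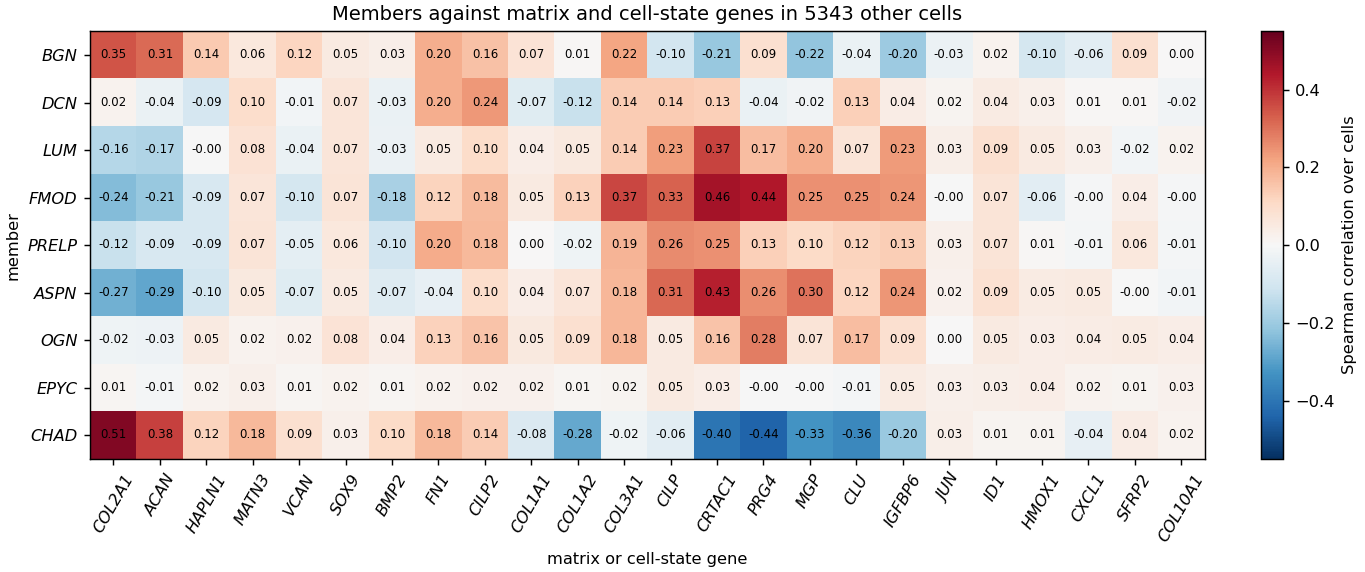
Spearman correlation of rpm over other cells between each member (rows) and 24 matrix and cell-state genes (columns), blue for negative and red for positive. CHAD is positive with COL2A1 (0.51) and ACAN (0.38) and negative with CRTAC1 (-0.40) and PRG4 (-0.44), and FMOD and ASPN show the opposite signs.

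ACAN, the aggrecan gene, had 0.38 with CHAD (0.09 to 0.55 over tags) and 0.31 with BGN (-0.02 to 0.54), and -0.21 with FMOD, -0.29 with ASPN and -0.17 with LUM. COL2A1 had the same signs, at 0.51, 0.35, -0.24, -0.27 and -0.16. Over tags, LUM ran from -0.23 to 0.00029 with ACAN and from -0.24 to 0.07 with COL2A1, and FMOD and ASPN were negative with both genes in each tag but came as near to 0 as -0.02 and -0.03. Not all other matrix genes were split in this way: HAPLN1 and VCAN were positive with BGN and CHAD and negative with FMOD and ASPN, with 0.14 the largest in size, while FN1, the fibronectin gene, had 0.20 with BGN, 0.18 with CHAD and 0.12 with FMOD, and COL3A1 had 0.22 with BGN, 0.37 with FMOD and -0.02 with CHAD. PRELP and DCN were weakly related to ACAN and COL2A1, between -0.12 and 0.02. JUN, an immediate early gene, and HMOX1, a heme-degrading enzyme, were within 0.10 of 0 for every member over all other cells, while HMOX1 reached -0.14 with BGN and 0.14 with CHAD within a tag. BMP2 had -0.18 with FMOD and IGFBP6 0.24.

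Gene order is given as a description. In the Macaca fascicularis RefSeq annotation (assembly T2T-MFA8v1.1, used only for gene order), which held all 9 members, FMOD and PRELP lie in 1 stretch with OPTC, and EPYC, KERA, LUM and DCN in another. OGN, OMD, ASPN and ECM2 lie inside the span of CENPP, CHAD lies inside the span of ACSF2, and BGN lies apart from the rest. FMOD and PRELP, with log2 ratios of 0.38 and 0.09, were the tested members not lower in notochordal cells, LUM and DCN were both lower, and OGN, OMD, ASPN and ECM2 were each lower there, the least of them OGN by 17.1-fold. Reads were counted over whole genes with strand, and a read that overlapped several genes could be given to more than one. The host gene CENPP had 9.51 rpm in notochordal and 9.63 rpm in other cells, and ACSF2 28.2 and 65.3 rpm.

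Related genes were counted by list. Of 9 other leucine-rich repeat proteoglycans, 6 were present and 3 tested, and these 3 were at least 2-fold lower in notochordal cells: OMD, osteomodulin, with a log2 ratio of -6.95, ECM2 with -5.04 and TSKU with -4.78. They too passed the filter only through the other cells, so that their direction was largely fixed by it. Detected in too few cells to be tested were KERA, OPTC and PODN. Of 13 collagens that bind these proteoglycans 11 were tested, 7 were lower and 2 higher, with a median of -3.30. Of all genes tested 11.3% were lower and 23.1% higher. COL2A1 had -3.98, COL9A1 -4.46, COL14A1 -4.19 and COL1A1 -5.74, while COL5A2 had 2.00 and COL6A3 1.05. COL12A1 and COL14A1 were also tested only because of the other cells, so their direction was largely fixed as well. The list of growth factors that these proteins bind held TGF-beta and BMP ligands, TGF-beta receptors and CCN2, a matricellular growth factor (-2.79). Of its 8 tested genes 6 were lower and 0 higher, against 11.3% and 23.1% of all genes tested. The median was -1.95, from BMP2 at -4.77 to TGFBR3 at 0.04. BMP2 and TGFB3 passed the filter only through the other cells, which largely fixed their direction, so this count is a description.

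Genes for the sugar chains were counted next. Of 12 tested enzymes for the linker and for chondroitin or dermatan sulfate, 3 were at least 2-fold higher in notochordal cells, namely XYLT1 (1.36), which adds the first xylose, CSGALNACT1 (1.17), which starts the chondroitin chain, and CHST3 (1.62), a sulfotransferase. Lower by at least 2-fold were CHSY1 (-2.07) and DSEL (-2.22), and the median was 0.53. Both counts were near the shares of all genes tested, 23.1% higher and 11.3% lower. CHSY1 and DSEL passed the filter only through the other cells and CHST3 only through the notochordal cells, so the filter largely fixed their direction. Of 6 tested keratan sulfate enzymes, B4GALT1 (-2.35) and CHST1 (-1.16) were lower and B4GALT4 (1.35) higher, with a median of 0.16. Proteases known to cleave the family gave 2 lower, MMP3 (-3.99) and MMP2 (-3.07), and 1 higher, HTRA1 (1.05), of 4 tested. The direction of MMP2 was largely fixed too, since it passed the filter only through the other cells. Of 7 tested chondrocyte markers 5 were lower, while ACAN (1.86) and SOX9 (1.69) were higher. Among the lower ones MATN3 passed the filter only through the other cells.

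Endothelial, leukocyte, pericyte, osteoblast and erythroid markers were low on both sides. So were the fibroblast markers PDGFRA, DPT and PI16, while THY1 was low in notochordal cells only. Summed over each list, endothelial markers had 3.07 rpm in notochordal and 2.60 rpm in other cells, leukocyte markers 23.6 and 21.9, pericyte markers 22.1 and 28.6, osteoblast markers 11.9 and 53.2, and the 1 erythroid marker analysed, ALAS2, 0.0151 and 0.0455. The most reads in each list were those of VWF, CD68, PDGFRB and IBSP over all cells, but in notochordal cells the osteoblast list was led by RUNX2, at 8.13 rpm, with IBSP at 0.575 rpm. Fibroblast markers had 41.6 and 425 rpm, nearly all of it THY1 (40.3 and 373 rpm), with PDGFRA at 0.923 and 45.1 rpm, DPT at 0.318 and 6.93 rpm and PI16 at 0 and 0.0353 rpm. The part of fibroblasts in the LUM, ASPN, OGN and DCN levels of the other cells was not tested.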

How the data were processed

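The authors aligned reads with HISAT2 2.2.1, counted them over whole genes of the Ensembl annotation with featureCounts 2.0.2 (strand-specific, multi-mapping and overlapping reads kept as fractions), and tallied them by cell in velocyto, with no molecular identifier. The deposited values are whole-number read counts, spliced, unspliced and ambiguous together. The genome build is not given in the sources used here. A second table of 1358 cell columns was not used. Of 5723 columns, 5653 cells were kept: 42 tag doublets and 7 untagged cells were dropped, then 21 cells outside 200 to 9000 genes or with 5% or more mitochondrial reads. No further doublet caller was run. Levels are pooled rpm. Ratios carry exact conditional binomial intervals and shares Clopper-Pearson intervals (95%), in Python 3.11.15 with numpy 2.4.6 and scipy 1.17.1. The ratio code was tested on simulated data. No p-value was computed. Members, gene lists and tests were chosen with earlier results of these data known. Named genes are the members, list genes and the 3 nearest correlates of each member, and FRZB and CPXM1 from the lowest correlates. The matching tag library holds no gene counts. Alternatives changed the cell rule, cell limits, depth, scaling, tags and correlation measure.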

Additional observations from a re-analysis of the deposited data

Results flagged for a closer look

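PRELP had a log2 ratio of notochordal over other cells of -0.0193 within tag A951 (67 notochordal cells) and 0.40 within tag A952 (236 notochordal cells), so the signs differ between the tags that hold most notochordal cells. Within tag A951 the counting intervals of both levels overlap, so the value there is not set apart from 0. The difference was not tested, since each tag gives 1 value.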

How the results depend on the processing

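The sign of each member's ratio held in 131 of 135 values over 15 alternatives, and the exceptions were 2 for PRELP and 2 for EPYC. FMOD ranged from 0.17 to 0.68 and BGN from -4.59 to -1.32. The median log2 ratio of the 9 members, -4.10, was -2.04 with KRT19 and TBXT reads summing to at least 5 (404 cells), -0.92 with at least 1 read of both (408 cells) and -2.44 as a mean of log2(rpm + 1), causes not tested. Leaving out each tag in turn gave -4.56 to -2.82, the latter without tag A952. Keeping only tags A951 and A952, an alternative chosen after seeing the data, gave -4.33. The number of members at least 2-fold lower was 6 under each alternative except 4 with at least 1 read of both, where LUM (-0.75) and ASPN (-0.92) lost the call. A total without the 50 highest genes and the mitochondrial genes moved the median of all genes tested from 0.28 to 0.07, and FMOD to 0.17. The median correlation between members, 0.0674, was 0.124 by Pearson on log2 values and 0.128 within tag A952, causes not tested, and 0.0583 to 0.0830 when each tag was left out. EPYC had too few reads to compare, and depth and low expression were not told apart. Notochordal and other cells were compared within tags as levels and ratios only, and no paired test was run, since there was 1 library.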

Other observations

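The 53 cells with at least 5 KRT19 reads but under 5 of TBXT and the 32 with the reverse are among the other cells. The KRT19 cells had 4689 rpm of BGN, 1972 of DCN, 3921 of CHAD, 24.9 of ASPN and 124 of OGN. The TBXT cells had 10085 rpm of BGN, 5052 of DCN, 6319 of CHAD, 207 of ASPN and 669 of OGN. FMOD had 8356 and 7406 rpm and PRELP 1587 and 1771 rpm in these groups, so the KRT19 cells lay between the notochordal and the other cells for BGN, DCN, CHAD, ASPN and OGN, and the TBXT cells near or above the other cells for DCN and OGN.

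Among the lowest correlations in other cells, looked up after the values were seen, FMOD had -0.46 with FRZB, a secreted Wnt antagonist of cartilage, and -0.42 with CPXM1, a carboxypeptidase family member. FRZB was negative with FMOD in each of the 4 tags, between -0.49 and -0.39.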
